A study of Mus musculus with 9 samples.

Results

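The genes described here are 46 genes of the type I interferon response, read across macrophages of 3 Stat6 genotypes. The rule that names them uses no measured value and takes interferon-stimulated genes, nucleic acid sensors, interferon regulatory factors (IRFs) and the receptor subunits. The 46 genes were, however, chosen with earlier results of these data known. All 46 names were found among the 55401 gene IDs of the table, and all 46 had enough counts to be among the 13501 genes tested. Their lowest count in any library was 10.

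Type I interferons are secreted proteins that warn cells of infection. They bind a receptor built from IFNAR1 and IFNAR2, which through the kinases JAK1 and TYK2 activates STAT2 and other STAT factors. With IRF9 these bind interferon-stimulated response elements (ISREs) in the promoters of antiviral genes. IRF3 and IRF7 drive the interferon genes themselves, and macrophages, which carry many of the sensors of foreign RNA and DNA, keep a low level of this programme in the absence of infection.

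Poly(A) RNA was sequenced from primary mouse peritoneal macrophages, which were "Thio"-elicited in the words of the design text, cultured in DMEM and 10% fetal bovine serum and harvested once they had adhered for a short time. The 3 genotypes had 3 libraries each: WT, Stat6S807A/S807A (SA) and Stat6S807E/S807E (SE). In SA and SE both Stat6 alleles carry the change, alanine or glutamate at Ser807 of STAT6, the transcription factor of the interleukin-4 and interleukin-13 receptors. The edit is not restricted to macrophages by anything in the labels, and no infection, interferon or cytokine treatment is named for any group. The sources used here give no age and do not say that libraries came from separate animals, so a p-value measures only the spread between these libraries, which may be technical. Values are CPM, counts scaled to library size with TMM factors, and a gene was called at an edgeR adjusted p under 0.05 over all tested genes.

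Library totals ran from 17286617 to 24618608 counts. Stat6 itself read 197.9, 201.4 and 187 CPM in WT, against 194.6, 199.5 and 199.8 in SA and 291.4, 284.2 and 312.3 in SE, which put SE 1.51-fold above WT (adjusted p = 6.27e-06 by edgeR). The summed level of 8 macrophage markers was 18200 to 23400 CPM in WT, 18400 to 19100 in SA and 18200 to 20900 in SE. Most of that sum is Lyz2 and Csf1r, and 3 of the 8 markers were called. Cd14 was 1.25-fold higher in SA than in WT and 1.41-fold lower in SE than in WT, Fcgr1 was 1.23-fold lower in SE than in WT, and Mertk 1.27-fold lower. Between SE and SA, Cd14 (1.77-fold) and Fcgr1 (1.46-fold) were called lower in SE, the direction of the 15 interferon genes called lower there. The other markers of the list were not called in that comparison and did not share 1 direction. Cd68, Lyz2 and Csf1r were higher in SE, with log2 differences of 0.21, 0.07 and 0.01. Adgre1, Itgam and Mertk were lower, at -0.06, -0.17 and -0.16. B cell, T and NK cell, and mast cell lists summed to at most 1.21 CPM in any library, with Pax5, Cd3e, Cd3g, Nkg7 and Ncr1 at 0 in all of them. A list of 8 fibroblast and mesothelial markers summed to 2.56 to 3.96 CPM in WT, 34.1 to 38.6 in SA and 5.99 to 9.95 in SE. The 3 collagen genes tested from it were called higher in SA than in WT and lower in SE than in SA. The fibroblast markers Dcn and Pdgfra had too few counts to be tested. Dcn had 10, 5 and 10 counts in SA, against 0, 1 and 1 in WT and 1, 0 and 2 in SE. Pdgfra had 5, 4 and 6 counts in SA, against 1, 0 and 1 in WT and 1, 1 and 0 in SE. The mesothelial markers Msln and Krt19 were at 0 in every library. A monocyte list of 5 genes summed to 44.8 to 55.9 CPM in WT, 38.2 to 41.4 in SA and 121 to 145 in SE, with Chil3 called higher in SE than in WT and Ccr2 lower. A conventional dendritic cell list of 6 genes summed to 32.6 to 38.3, 35.9 to 38.6 and 50.9 to 54.8 CPM in WT, SA and SE, nearly all of it Batf3, which was called 1.58-fold higher in SE than in WT. The part of any of these lists in the differences of the interferon genes was not tested. A list for plasmacytoid dendritic cells, a strong source of interferon, summed to 237 to 262 CPM in WT, 261 to 271 in SA and 262 to 281 in SE. Most of that is Bst2, itself 1 of the 46, and Tcf4, while the defining marker Siglech had 0 counts in 8 libraries and 1 count in SE2.

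The letters near the start sites were searched for the elements that interferon and STAT factors bind. RefSeq promoter windows (build GRCm38.p6, 250 bases before the start to 50 after) were found for 35 of the 46 genes. There was no window for Dhx58, Zbp1, Ifi204, Oas2, Usp18, Parp9, Parp14, Mx1, Mx2, Ifi27 and Rtp4. An ISRE core, searched on both strands as GAAA, any 2 bases, then GAAA, stood in 16 of the 35 (45.7%), against 3.99% of 27025 genes with a window of the same length. A letter pattern of the type STAT6 dimers bind, TTC, any 4 bases, then GAA, stood in 5 (14.3%, against 8.01%). The gamma-activated site, TTC, any 3 bases, then GAA, stood in 10 (28.6%, against 9.55%). An ISRE core overlapped a STAT6 type match in Oas1a and a gamma-activated site in Ifitm3 and Bst2. Irf7 had a window without the ISRE core letters. These matches describe letters in a window and not bound sites.

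The stretches below show the ISRE cores of 8 genes whose counts are described further on, chosen because 4 of them were called lower in SE than in SA (Ifit3, Ifitm2, Slfn5 and Slfn8), 1 holds 3 cores (Isg15), 1 was called higher in SE than in WT (Bst2), and Ifit1 and Ifit3b are neighbours of Ifit3. All lie upstream of the RefSeq start of their window, are written 5′ to 3′ in the direction of the gene, and carry the core in capitals. The Slfn5 stretch lies inside the gene coordinates printed further on, which begin at an earlier start. The Ifitm2 stretch overlaps the edge of the coordinates used here for that gene. Where the capitals read TTTC first, the core lies on the opposite strand.
Isg15 chr4:156200860-156200911 (minus strand): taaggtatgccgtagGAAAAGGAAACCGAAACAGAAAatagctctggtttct
Bst2 chr8:71537572-71537617 (minus strand): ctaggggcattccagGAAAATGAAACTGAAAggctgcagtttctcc
Ifitm2 chr7:140955983-140956022 (minus strand): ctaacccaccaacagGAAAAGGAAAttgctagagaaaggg
Slfn5 chr11:82951932-82951971 (plus strand): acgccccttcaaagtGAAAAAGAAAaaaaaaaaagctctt
Slfn8 chr11:83020834-83020873 (minus strand): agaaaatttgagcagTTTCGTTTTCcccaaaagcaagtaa
Ifit1 chr19:34640770-34640828 (plus strand): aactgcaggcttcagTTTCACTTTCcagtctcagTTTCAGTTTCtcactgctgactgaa
Ifit3 chr19:34583358-34583431 (plus strand): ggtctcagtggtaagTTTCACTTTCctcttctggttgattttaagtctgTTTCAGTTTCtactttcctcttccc
Ifit3b chr19:34607754-34607827 (plus strand): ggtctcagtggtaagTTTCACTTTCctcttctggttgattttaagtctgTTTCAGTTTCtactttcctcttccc
The 74 bases shown for Ifit3 and Ifit3b were identical, and each holds 2 cores. Isg15 holds 3 overlapping cores and Bst2 2. Of the 12 genes with a window that were lower in SE than in SA by the test below, 7 held an ISRE core, 2 a gamma-activated site and 0 the STAT6 type pattern. Among all 35 genes with a window these were 16 (45.7%), 10 (28.6%) and 5 (14.3%). With 12 genes, a difference from those shares was not tested.

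**Figure D1:**
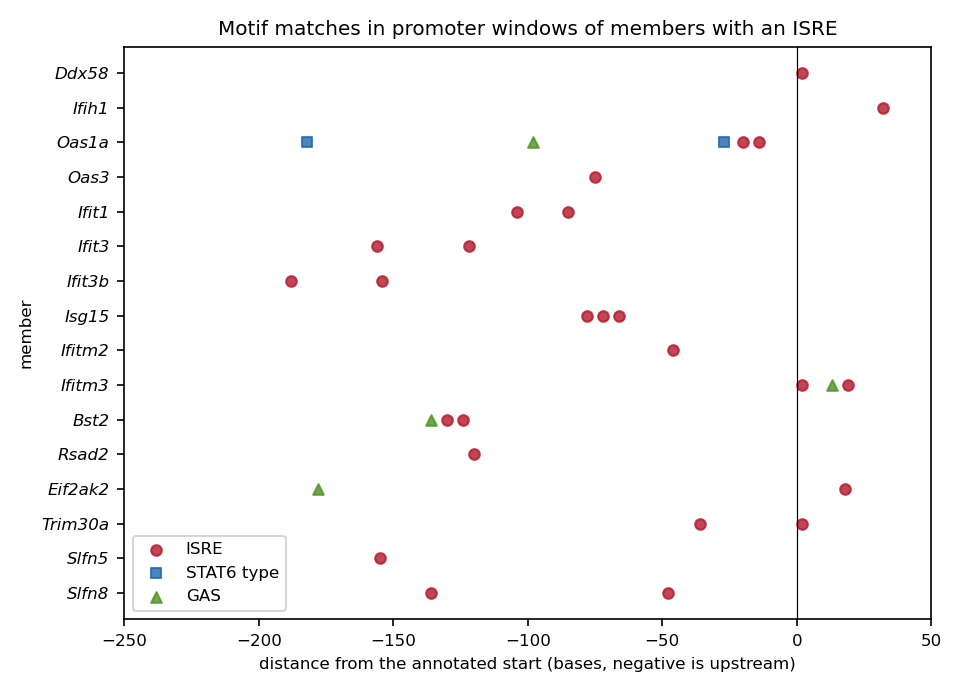
Position of each match in the promoter windows of the 16 genes with an ISRE core, 1 row per gene, as distance in bases from the annotated start (negative is upstream): circles for the ISRE core, squares for the STAT6 type pattern and triangles for the gamma-activated site (GAS). Circles stand on both sides of the start; the pair of Slfn8 is 1 match read from 2 annotated starts.

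The 46 genes spanned a wide range of levels in these cells. Per kilobase of exon, mean levels over the 9 libraries ran from 0.4701 CPM per kb for Ifit3b to 253.4 for Ifitm3, a 539-fold range with a median of 12.46. After Ifitm3 the order was Bst2 (217.3 CPM per kb), Slfn2 (191.7), Irf5 (153.3), Ifitm2 (151.3) and Samhd1 (69.01). Ifitm3, Bst2 and Ifitm2 encode membrane-associated antiviral proteins, and Irf5 encodes a transcription factor. Some classical interferon-induced genes, such as Mx1 (1.792 CPM per kb), Ifi44 (1.224) and Ifit1 (3.428), stood near the bottom of the order. Others, such as Oas1a (35.83), Oas2 (17.05) and Isg15 (16.33), lay above the median. Between libraries of 1 genotype the coefficient of variation had a median of 7.62% over the genes, from 2.36% for Samhd1 to 31.2% for Ifit3b. The 3 genes under 5 CPM, Ifit3b, Mx2 and Isg20, passed the test in no comparison.

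**Figure D2:**
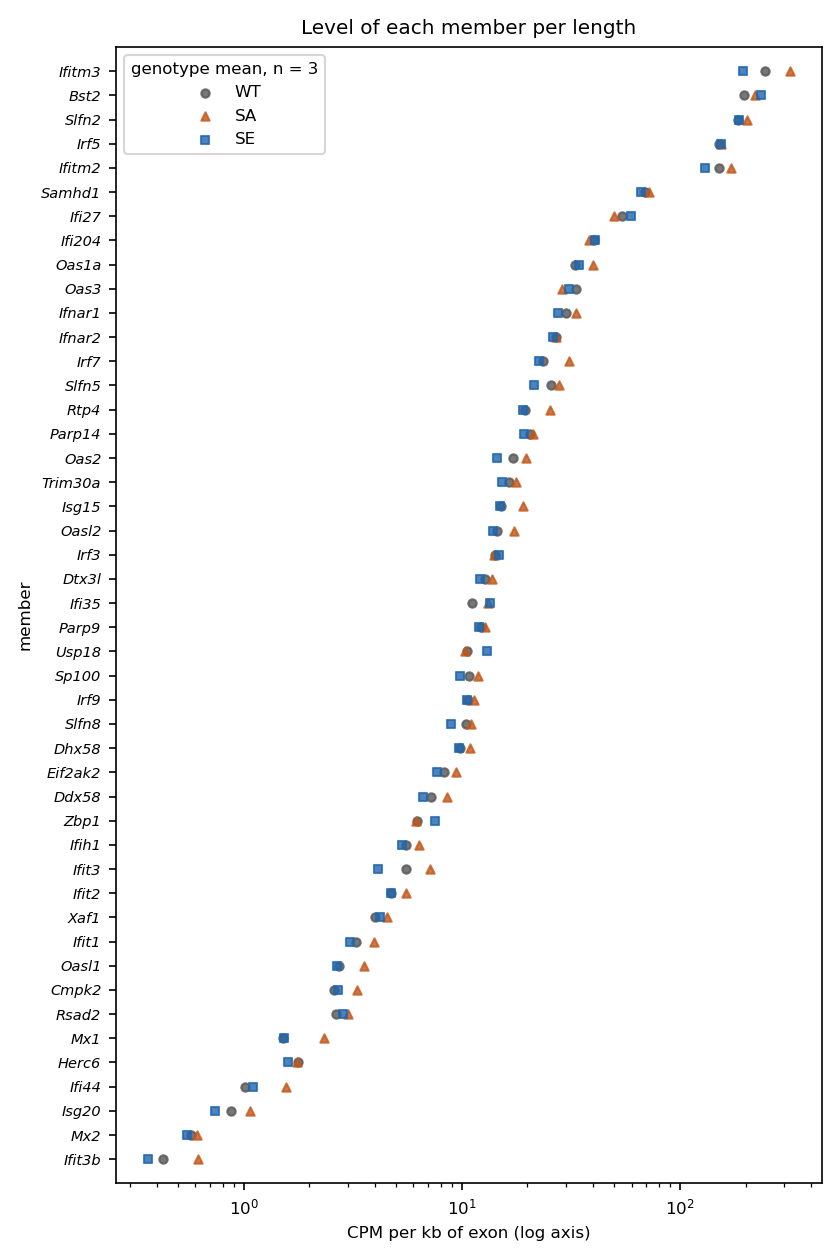
Mean level of each of the 46 genes in CPM per kilobase of exon (log axis), 1 row per gene ordered by level, with a symbol for each genotype's mean (n = 3). Levels ran from 0.4701 to 253.4 CPM per kb, and the 3 symbols of a gene lie close together beside this range.

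More of the genes were called between the mutants than between either mutant and WT. Of the 46 genes, 15 were called lower in SE than in SA (32.6%, against 5.42% of all tested genes) and 2 were called higher (4.35%, against 4.77%). Between SA and WT, 3 were called higher in SA (6.52%, against 1.97% of all tested genes), namely Irf7, Ifitm3 and Ifi44. edgeR called 0 lower in SA (background 2.1%), and DESeq2 called 1, Oas3. At an unadjusted p under 0.05, 19 of the 46 were higher in SA (41.3%, against 6.69% of all tested genes) and 1 was lower (2.17%, against 7%). Between SE and WT, 2 were called higher, Usp18 and Bst2 (4.35%, against 2.35%), and 1 lower, Ifitm3 (2.17%, against 2.69%), which is close to the background. The libraries of each genotype enter 2 of the 3 comparisons, so the 3 sets of calls are not independent. Poly(A) RNA of a population cannot tell fewer cells of a kind from less RNA per cell.

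The median log2 difference of the 46 genes was 0.17 for SA against WT (0.0014 over all tested genes), with 39 genes positive and 7 negative. For SE against WT it was -0.05 (-0.0033 over all), with 14 positive and 32 negative. For SE against SA it was -0.23 (-0.0031 over all), with 9 positive and 37 negative. The genotype means of 28 genes ran SE, WT, SA from low to high, an order held by 20.9% of all tested genes. A further 7 ran WT, SE, SA, 5 ran SA, WT, SE (Irf3, Zbp1, Ifi204, Usp18 and Ifi27), 3 ran WT, SA, SE (Irf5, Bst2 and Ifi35), 2 ran SE, SA, WT (Ifnar2 and Herc6) and 1 ran SA, SE, WT (Oas3). Of all tested genes, 13.2%, 19.8%, 16.5%, 16.5% and 13.2% held these further orders, in the same sequence. Many of the orders rest on differences within the spread of the libraries.

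**Figure D3:**
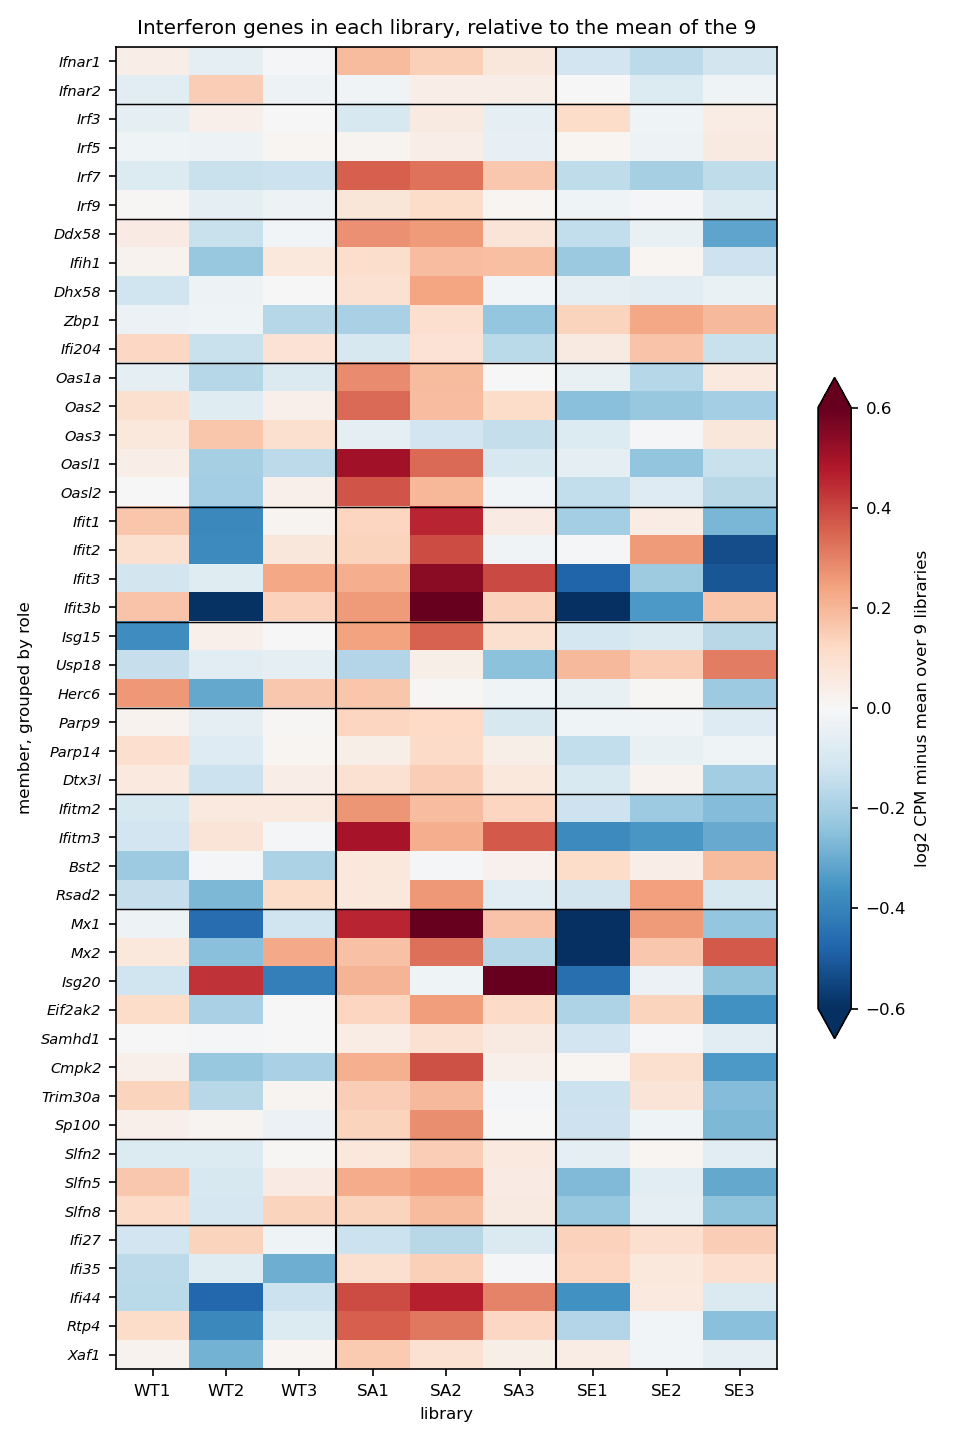
Log2 CPM of the 46 genes (rows, grouped by role) in the 9 libraries (columns), each row as its difference from the gene's mean over the 9 libraries, with colours capped at 0.6 in either direction. Rows such as Irf7 and Ifitm3 are above their mean in all SA libraries, and Usp18, Zbp1 and Ifi27 in all SE libraries.

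Single libraries could also be read against the genotype order. The median over the 46 genes of each library's log2 deviation from the gene means was 0.01, -0.09 and 0.0027 in WT1, WT2 and WT3. It was 0.135, 0.19 and 0.04 in SA1, SA2 and SA3, and -0.11, -0.02 and -0.13 in SE1, SE2 and SE3. All SA libraries lay above all others on this measure, SA3 by a small margin over WT1, and SE2 lay within the WT range. SA3 was the lowest SA library for 36 of the 46 genes (78.3%, against 33.9% of all tested genes), WT2 the lowest WT library for 30 (65.2%, against 40.2%) and SE3 the lowest SE library for 21 (45.7%, against 36.3%). Over all tested genes, the deviations of WT2 and SE3 from their genotype means correlated at 0.27, the highest value between libraries of different genotypes. The values were 0.122 for WT2 with SA3 and 0.0984 for SA3 with SE3. What these libraries share was not tested. In the comparison of SA with WT, the 3 libraries of 1 genotype lay wholly above those of the other for 21 genes higher in SA (45.7%, against 9.6% of all tested genes) and 1 lower, Oas3 (2.17%, against 9.71%). For SE and WT these counts were 4 higher in SE (8.7%, against 10.1%) and 6 lower (13%, against 10.4%). For SE and SA they were 3 higher in SE (6.52%, against 14.2%) and 23 lower (50%, against 14.1%).

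The receptor subunits differed in how they followed genotype. Ifnar1 (ENSMUSG00000022967, chr16:91485238-91507441, build mm10 as for all positions here), which encodes the subunit that carries TYK2, read 185, 173 and 179 CPM in WT, against 205, 199 and 189 in SA and 166, 161 and 167 in SE. The libraries of the 3 genotypes did not overlap, with SA highest and SE lowest. It was 1.2-fold lower in SE than in SA (-0.26 ± 0.06 on the log2 scale with its standard error, adjusted p = 0.00592 by edgeR), whereas the differences from WT did not pass the test (adjusted p = 0.23 by edgeR for SA and 0.267 for SE). Ifnar2, the subunit with the higher affinity for interferon, read 84.9, 98.6 and 87.1 CPM in WT, against 87.6, 91.4 and 91.4 in SA and 89, 84.1 and 87.5 in SE. Its libraries overlapped between all genotypes, and its largest difference was -0.05 ± 0.07 on the log2 scale for SE against SA (adjusted p = 0.696 by edgeR).

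Among the 4 IRFs, Irf7 stood apart. Irf7 (ENSMUSG00000025498, chr7:141262706-141266481), itself an interferon-induced gene and the factor that amplifies interferon production, read 90.5, 87.3 and 87.8 CPM in WT, against 123, 120.3 and 107 in SA and 86.4, 83.4 and 86.3 in SE. All SA libraries lay above all WT libraries, and the SE libraries lay just under the WT ones. It averaged 88.5 ± 1.7, 117 ± 8.35 and 85.4 ± 1.69 CPM (SD, n = 3) in WT, SA and SE, 1.32-fold higher in SA than in WT (adjusted p = 0.000661 by edgeR) and 1.37-fold lower in SE than in SA (adjusted p = 0.00015 by edgeR). SE against WT gave -0.05 ± 0.06 on the log2 scale (adjusted p = 0.726 by edgeR). Its exons share 45 bases with Phrf1 on the opposite strand, and no strand setting of the counting is known from the sources used here.

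The other IRFs did not pass the test in any comparison. Irf3, which is present at rest and activated by phosphorylation, read 47.3, 50.3 and 49.2 CPM in WT, against 46.1, 51.2 and 47.4 in SA and 53.1, 48.5 and 50.8 in SE. Irf5, which drives inflammatory cytokine genes and was the most abundant of them per length, read 438, 436 and 449 CPM in WT, against 451, 457 and 430.2 in SA and 449, 437 and 462 in SE, and has 411 exon bases shared with Tnpo3 on the opposite strand. Irf9, the DNA-binding partner of STAT2, read 58.6, 56.1 and 57.1 CPM in WT, against 61.3, 63.1 and 58.7 in SA and 57.4, 58 and 55.2 in SE. The SA libraries of Irf9 lay above the others by a narrow margin, and SE against SA was -0.10 ± 0.06 on the log2 scale (adjusted p = 0.346 by edgeR).

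**Figure D4:**
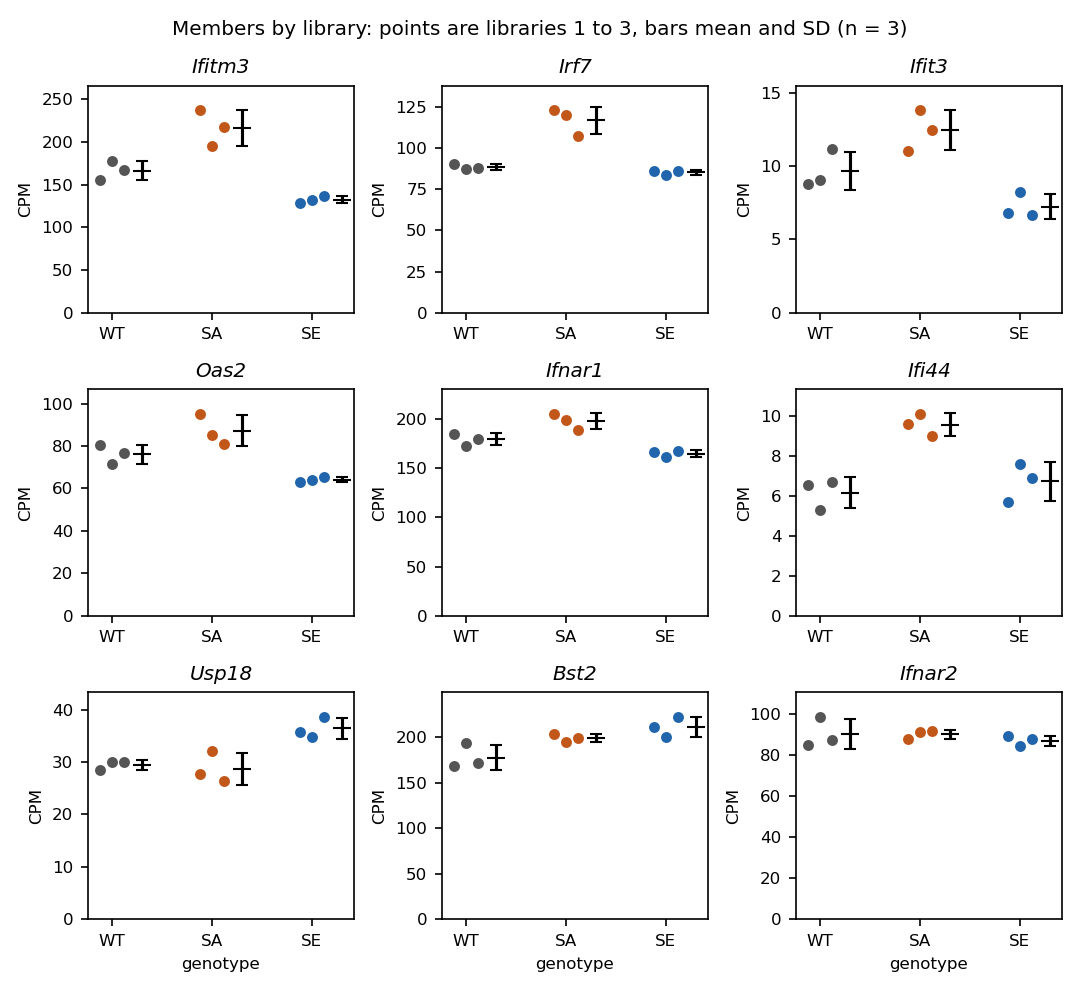
CPM of selected genes in each library, 1 panel for each of 9 genes, with a point per library and bars for each genotype's mean and SD (n = 3); each axis starts at 0. Ifitm3 and Irf7 are highest in the 3 SA libraries, Usp18 is highest in the 3 SE libraries, and Ifnar2 overlaps between all genotypes.

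Both signalling sensors of viral RNA were lower in SE than in SA. Ddx58, which encodes RIG-I, read 54.1, 47.6 and 51.8 CPM in WT, against 63.2, 62.5 and 55.2 in SA and 47.2, 50.7 and 42 in SE, with all SE libraries under all SA libraries (1.29-fold lower, adjusted p = 0.00636 by edgeR). Ifih1, which encodes MDA5, read 47.3, 39.8 and 48.7 CPM in WT, against 50.2, 53 and 52.7 in SA and 39.96, 47 and 42.8 in SE. It was 1.2-fold lower in SE than in SA, close to the threshold (adjusted p = 0.0473 by edgeR). Dhx58, which encodes the regulator LGP2, had all SE libraries under all SA libraries as well, with a log2 difference of -0.16 ± 0.08 that did not pass (adjusted p = 0.216 by edgeR). The means of the sensors of DNA and of Z-form nucleic acid were not in this order. Zbp1, a sensor that triggers cell death, read 22.7, 22.9 and 20.7 CPM in WT, against 20.3, 24.9 and 19.8 in SA and 25.5, 27.3 and 26.6 in SE, with every SE library above every other library. Its difference of 0.29 ± 0.09 on the log2 scale between SE and SA missed the threshold (adjusted p = 0.0537 by edgeR). Ifi204, a DNA sensor of the p200 family with 20% of its 50-base words shared with other genes, overlapped between all genotypes at 154, 129 and 150.5 CPM in WT, against 133, 150.4 and 126 in SA and 147, 159 and 129 in SE.

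The 2′-5′ oligoadenylate synthetase genes lie on chromosome 5 and did not share 1 direction. Oas2 (ENSMUSG00000032690, chr5:120730333-120749853), which makes the second messenger that activates RNase L, read 80.4, 71.5 and 76.7 CPM in WT, against 95.3, 85.4 and 81.1 in SA and 63.2, 64.2 and 65.3 in SE. The libraries of the 3 genotypes did not overlap, and Oas2 was 1.36-fold lower in SE than in SA (adjusted p = 0.000521 by edgeR), while SE against WT just missed (adjusted p = 0.051 by edgeR). Oas3, its neighbour, read 229, 246 and 234 CPM in WT, against 211, 202 and 198 in SA and 207, 218 and 229.6 in SE. Its WT libraries lay above the SA libraries, a log2 difference of -0.21 ± 0.06 in the direction opposite to Oas2 that just missed the threshold (adjusted p = 0.0511 by edgeR). Oasl2, which encodes an oligoadenylate synthetase-like protein, read 96.6, 83.5 and 98.3 CPM in WT, against 125, 111 and 95.1 in SA and 87.1, 91.5 and 85.9 in SE, and was 1.25-fold lower in SE than in SA (adjusted p = 0.024 by edgeR). Oas1a and Oasl1 passed the test in no comparison, with log2 differences of 0.27 ± 0.08 and 0.37 ± 0.14 for SA against WT (adjusted p = 0.0741 by edgeR for Oas1a and 0.201 for Oasl1). Oas1a shares 57.6% of its 50-base words with other genes, mostly Oas1g, so its counts are uncertain.

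All 4 IFIT genes, which lie in a cluster on chromosome 19 and encode proteins that bind foreign RNA, had lower means in SE than in SA. Ifit3 (ENSMUSG00000074896, chr19:34583531-34588731), the 1 called, read 8.79, 9.04 and 11.2 CPM in WT, against 11.1, 13.8 and 12.5 in SA and 6.82, 8.2 and 6.65 in SE. No SE library reached the lowest WT or SA library, and the SA range overlapped that of WT. It was 1.73-fold lower in SE than in SA (adjusted p = 0.000718 by edgeR), the largest fold among the 46 genes in any comparison that passed. SE against WT was -0.42 ± 0.13 on the log2 scale and did not pass (adjusted p = 0.0755 by edgeR). Ifit3 and Ifit3b share 51.2% and 45% of their 50-base words with other genes, as well as the promoter stretch printed above, so reads may be split between them. Ifit1 read 10.1, 6.87 and 9.07 CPM in WT, against 9.83, 12.3 and 9.3 in SA and 7.79, 9.25 and 7.43 in SE, and Ifit2 read 20.6, 14.8 and 20.2 CPM in WT, against 21.2, 25.4 and 19.1 in SA and 19.2, 23 and 13.3 in SE. These genes varied more between libraries of 1 genotype than most, with coefficients of variation of 15.6% and 20.1%, and neither passed the test (adjusted p = 0.137 by edgeR for Ifit1 and 0.456 for Ifit2, SE against SA).

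ISG15 is a ubiquitin-like protein attached to other proteins, HERC6 attaches it in the mouse, and USP18 removes it and also blocks signalling at IFNAR2. Isg15, whose promoter carries the 3 cores shown above, read 9.43, 12.5 and 12.2 CPM in WT, against 14.5, 15.6 and 13.1 in SA and 11.4, 11.5 and 10.9 in SE. Every SA library lay above every WT and SE library, yet the differences did not pass (adjusted p = 0.119 by edgeR for SA against WT and 0.0596 for SE against SA). Usp18 (ENSMUSG00000030107, chr6:121245906-121270917) ran the other way, at 28.4, 29.9 and 30.02 CPM in WT, against 27.7, 32.1 and 26.4 in SA and 35.8, 34.8 and 38.7 in SE. The SE libraries stood above all others, 1.24-fold over WT (adjusted p = 0.0351 by edgeR) and 1.27-fold over SA (adjusted p = 0.0114 by edgeR). Herc6, with 12.5% of its 50-base words shared, read 18.9, 12.7 and 17.6 CPM in WT, against 17.7, 15.8 and 15.5 in SA and 15.3, 15.8 and 13.6 in SE, overlapped between all genotypes and passed nowhere. Parp9 and Dtx3l, which encode partner proteins in ADP-ribosylation and ubiquitination, and Parp14 passed in no comparison either, with log2 differences for SE against SA of -0.10 ± 0.07, -0.19 ± 0.07 and -0.13 ± 0.06. Parp9 and Dtx3l share 458 exon bases on opposite strands.

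Among membrane-associated antiviral proteins the 2 interferon-induced transmembrane genes were lower in SE than in SA. Ifitm3 (ENSMUSG00000025492, chr7:141009586-141010770), which blocks entry of viruses from endosomes and had the highest level per length of the 46, read 155, 177 and 167 CPM in WT, against 237, 195 and 217 in SA and 129, 132 and 136 in SE. The libraries of the 3 genotypes did not overlap. It averaged 166 ± 11, 217 ± 20.9 and 132 ± 3.86 CPM (SD, n = 3) in WT, SA and SE, and was the 1 gene of the 46 called in all 3 comparisons. It was 1.3-fold higher in SA than in WT (adjusted p = 0.00333 by edgeR), 1.26-fold lower in SE than in WT (adjusted p = 0.011 by edgeR) and 1.64-fold lower in SE than in SA (adjusted p = 7.27e-06 by edgeR). The related Ifitm2 read 92.1, 102 and 102 CPM in WT, against 118, 112 and 108 in SA and 90.3, 84.7 and 82.2 in SE, again without overlap between genotypes. It was 1.31-fold lower in SE than in SA (adjusted p = 0.000846 by edgeR), and shares 48.5% of its 50-base words with other genes, 36.1% with the gene model Gm45717, which had 1 count in all.

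Bst2 (ENSMUSG00000046718, chr8:71534255-71537456), which encodes tetherin, a protein that holds budding virus at the cell surface, kept a different order. It read 168, 194 and 171 CPM in WT, against 204, 195 and 199 in SA and 211, 201 and 223 in SE. Every SA and SE library lay above every WT library, and SE was 1.19-fold above WT (adjusted p = 0.0281 by edgeR), while SA against WT did not pass (adjusted p = 0.213 by edgeR). Rsad2, which encodes viperin, an enzyme that makes a chain-terminating nucleotide, overlapped between all genotypes at 11.1, 10.1 and 13.2 CPM in WT, against 12.7, 14.6 and 11.7 in SA and 11.3, 14.4 and 11.4 in SE, and passed nowhere.

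Of 8 other antiviral effectors, 2 were called lower in SE than in SA and all 8 had a lower mean there. Mx1, a dynamin-like GTPase, read 6.39, 4.75 and 6 CPM in WT, against 8.95, 10.2 and 7.35 in SA and 4.07, 7.8 and 5.55 in SE. The SE libraries spread 1.916-fold among themselves, SE2 lay above the lowest SA library, and the 1.54-fold difference passed the test narrowly (adjusted p = 0.0462 by edgeR). Sp100, a component of nuclear bodies, read 83.2, 82.5 and 79.7 CPM in WT, against 89.6, 98.8 and 81.5 in SA and 74.8, 80.1 and 67.6 in SE, and was 1.21-fold lower in SE than in SA (adjusted p = 0.0266 by edgeR). Samhd1, which removes nucleotides that viruses need, read 632, 626 and 632 CPM in WT, against 652, 672 and 656 in SA and 582, 627 and 604 in SE (adjusted p = 0.154 by edgeR for SE against SA). For Eif2ak2, which encodes the RNA-activated kinase PKR, Cmpk2, Trim30a, Mx2 and Isg20 the log2 differences for SE against SA were -0.29 ± 0.10, -0.28 ± 0.12, -0.21 ± 0.09, -0.17 ± 0.27 and -0.54 ± 0.26, and none passed.

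The Schlafen genes, a family first described as growth regulators of lymphocytes, lie together on chromosome 11. Slfn5 (ENSMUSG00000054404, chr11:82951349-82964840) read 175, 147 and 162 CPM in WT, against 183, 186 and 162 in SA and 130.5, 149.8 and 127 in SE, and Slfn8 read 44.6, 38.4 and 45.2 CPM in WT, against 45.3, 47 and 42.8 in SA and 35.2, 39.7 and 34.9 in SE. In both genes all SE libraries lay under all SA libraries, 1.3-fold lower for Slfn5 (adjusted p = 0.00425 by edgeR) and 1.23-fold lower for Slfn8 (adjusted p = 0.0225 by edgeR). The SE libraries overlapped those of WT, with log2 differences of -0.25 ± 0.08 and -0.23 ± 0.08 that did not pass (adjusted p = 0.0757 by edgeR for Slfn5 and 0.12 for Slfn8). Slfn2, the most abundant of them per length, read 301, 301 and 320.1 CPM in WT, against 332, 353 and 332 in SA and 307, 321 and 304 in SE, and was called in no comparison. Slfn8 shares 14.6% of its 50-base words with other genes.

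The remaining 5 genes have less certain roles. Ifi44 (ENSMUSG00000028037, chr3:151730922-151749960) read 6.55, 5.28 and 6.7 CPM in WT, against 9.61, 10.1 and 8.99 in SA and 5.69, 7.62 and 6.91 in SE, with every SA library above every other. It was 1.54-fold higher in SA than in WT (adjusted p = 0.00849 by edgeR), the largest called fold in that comparison among the 46, and 1.43-fold lower in SE than in SA (adjusted p = 0.0177 by edgeR). Rtp4, a chaperone of membrane receptors, read 48.3, 34.2 and 42.3 CPM in WT, against 57.4, 55.8 and 48.8 in SA and 39.7, 44.2 and 37.5 in SE. It shares 11.6% of its 50-base words with other genes. Rtp4 was 1.34-fold lower in SE than in SA (adjusted p = 0.0164 by edgeR), and SA against WT missed the threshold (adjusted p = 0.056 by edgeR). Ifi27 went the other way at 73.4, 87.2 and 78.2 CPM in WT, against 72.7, 71 and 75 in SA and 87.6, 85.4 and 88.3 in SE, 1.2-fold higher in SE than in SA (adjusted p = 0.0209 by edgeR). Ifi35, at 19.4, 20.6 and 17.6 CPM in WT, against 23.1, 23.9 and 21.5 in SA and 23.6, 22.6 and 23.2 in SE, had both mutants above WT in every library without passing (adjusted p = 0.118 by edgeR for SA and 0.0692 for SE). Xaf1, a partner of the apoptosis inhibitor XIAP, passed in no comparison.

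**Figure D5:**
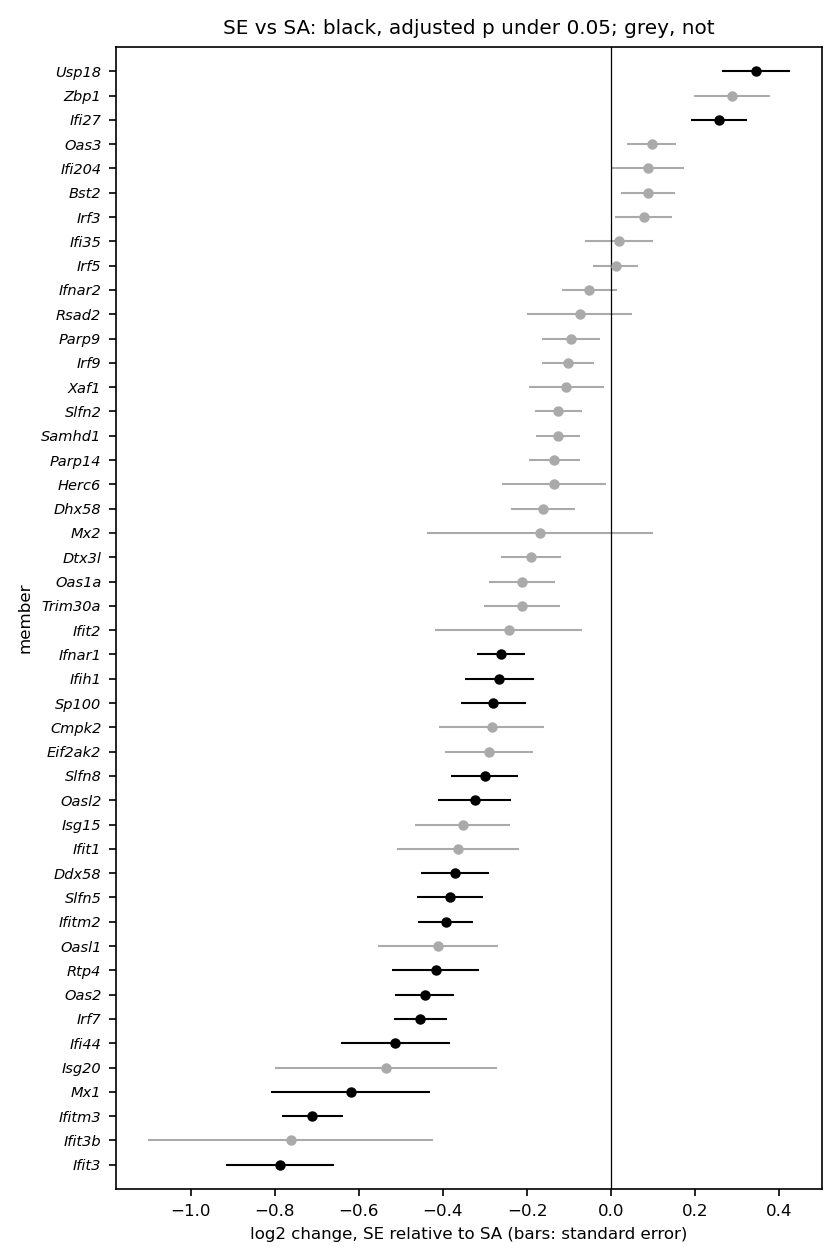
Log2 difference of SE against SA for each of the 46 genes, with its standard error from the edgeR fit; black points are called at an adjusted p under 0.05 and grey ones are not. Of the 46, 15 called genes lie below 0, from Ifit3 to Ifnar1, and 2 lie above, Usp18 and Ifi27.

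The strength of these calls depended on single libraries for part of the list. In SE against SA, 17 genes were called with all 9 libraries, 8 without SA1, 10 without SA2 and 9 without SE1. Calls over all tested genes went down as well, from 10.2% to 6.09%, 5.69% and 5.9% in the same settings. Without SA1 the calls of Ifih1, Oasl2, Mx1, Sp100, Slfn8, Ifi44, Rtp4, Usp18 and Ifi27 ended, whereas those of Ifnar1, Irf7, Ddx58, Oas2, Ifit3, Ifitm2, Ifitm3 and Slfn5 held under each of the 18 alternatives run. In SE against WT the 3 calls by edgeR became 0 without WT3 or without SE1, 1 without SE3 and 8 without WT2, while the share of all tested genes called went from 5.04% to 2.13%, 2.42%, 4.71% and 7.98%. In SA against WT they became 7 without SA3, 6 without SE3 and 5 without WT1 (2.82%, 4.74% and 3.72% of all tested genes, against 4.07%), and Irf7, Ifitm3 and Ifi44 held under each alternative.

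Interferon itself was barely detected. Of 11 interferon genes looked at, 0 had enough counts to be tested, and none had over 5 counts in a library. Ifnb1, the interferon that macrophages make first, had 0 counts in every WT and SA library and 1 count in each SE library. A count of 0 allows a level of up to 3 counts, or 0.122 to 0.174 CPM. Stat2, which relays the signal, read 97.1, 89.3 and 99.4 CPM in WT, against 108, 110.0 and 98.7 in SA and 106, 107 and 113 in SE, and was called nowhere. The kinase genes Jak1 and Tyk2 did not pass either. Socs1, which inhibits JAK kinases and is induced by several cytokines, read 19.8, 21.7 and 19.2 CPM in WT, against 19.4, 20.7 and 19 in SA and 32, 34.1 and 34.8 in SE. Every SE library of Socs1 lay above every other library, 1.67-fold over WT (adjusted p = 2.45e-05 by edgeR).

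Of 106 other genes of the pathway, 90 were tested. In SE against SA, 15 were called lower (16.7%, against 5.42% of all tested genes) and 2 higher (2.22%, against 4.77%), with a median log2 difference of -0.072 (-0.0031 over all). At an unadjusted p under 0.05, 28 were lower (31.1%, against 11.3% of all) and 5 higher (5.56%, against 11.4%). The lower genes were Ptpn6, Ikbke, Tlr9, Apobec3, Ddx60, Trim34a, Ifi27l2a, Ifi213, Ly6e, Ms4a4c, Ms4a6b, Gbp5, Gbp9, Cxcl10 and Ccl5, and the higher ones were Socs1 and Irf1. In SA against WT, 5 were called higher (Ifi27l2a, Ifi213, Ms4a4c, Cxcl10 and Ccl5), or 5.56% against 1.97% of all tested genes. edgeR called 0 lower there, against 2.1% of all. At an unadjusted p under 0.05, 19 were higher in SA (21.1%, against 6.69% of all) and 0 lower (against 7%). In SE against WT, Socs1 and Tor3a were called higher (2.22%, against 2.35% of all) and Ifi27l2a and Ms4a6b lower (2.22%, against 2.69%). Cxcl10, an interferon-induced chemokine, was near its limit of detection at 0.359, 0.411 and 0.605 CPM in WT, against 0.926, 1.27 and 1.39 in SA and 0.539, 0.698 and 0.419 in SE. Over the 9 libraries the genes outside the list whose log2 CPM followed Irf7 most closely were Tnf, Dok2, Sqle, Slamf9 and Vasp, with Pearson r from 0.966 to 0.986, given as a description of points that share genotype, library and scaling. Tnf, which encodes an inflammatory cytokine, read 10.87, 10.45 and 9.727 CPM in WT, against 18.64, 17.43 and 13.77 in SA and 10.3, 10.3 and 9.791 in SE.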

How the data were processed

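The authors deposited raw read counts per Ensembl gene for 9 libraries, 3 per genotype. Alignment and counting tools in the submitters' processing notes are HISAT2 2.1.0 and featureCounts (no version), with the build mm10. The sources used here give no strand setting, annotation release or treatment of multi-mapping reads. Of 55401 IDs, 55141 matched GENCODE M21, which gave symbols, exon lengths and coordinates (mm10), and 260 did not.

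Counts were fitted in R 4.3.3 with edgeR 4.0.16: filterByExpr (minimum count 10, minimum total 15), TMM, robust quasi-likelihood fitting on genotype alone (6 residual degrees of freedom, biological coefficient of variation 6.75%), the 2-sided F test and Benjamini-Hochberg adjustment over 13501 genes. DESeq2 1.42.0 and the other alternatives are in the closing section. The fit was also run on simulated independent counts whose spread came from this same fit. That run cannot show how the fit behaves on these libraries. At 3 counts the floor was 0.122 to 0.174 CPM, which covers counting error only. No pair of replicates agreed within sampling noise.

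The 46 genes, the role groups and the pathway and marker lists were chosen with earlier results of these data known. Named genes are those called in at least 1 comparison, the receptors and IRFs, the 2 with the largest difference each way per comparison among those of at least 5 CPM, and the most abundant per length in each role group. Other members named were added after their values were seen. Shared 50-base words came from GENCODE M21 transcripts, and promoter windows from RefSeq. Sources for protein sequence were not used here.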

Additional observations from a re-analysis of the deposited data

How the results depend on the processing

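Over 93 pairs of a gene and a comparison and 18 alternatives, 1550 values kept their direction and their side of the threshold, 58 lost the call and 66 gained one; 0 reversed. Of 23 calls, 11 were kept under every alternative: Irf7, Ifitm3 and Ifi44 for SA against WT, and Ifnar1, Irf7, Ddx58, Oas2, Ifit3, Ifitm2, Ifitm3 and Slfn5 for SE against SA. The 3 calls of SA against WT became 5 with DESeq2, 8 without a filter on low counts and 5 with 2 genotypes only. In alternatives chosen after seeing the data, they became 10 without both WT2 and SE3 and 5 without both WT1 and SE2. Of all tested genes, 4.07% were called in the main setting, against 2.05%, 2.84%, 4.29%, 6.58% and 3.71% in these settings, in that order. With DESeq2 and without the filter, the share is over 26689 genes. Leaving out 1 library gave 3 to 7 (2.16% to 4.74% of all tested genes). The 3 calls of SE against WT became 5 with DESeq2, 6 without a filter, 1 with a replicate block and 7 without both WT2 and SE3. Here 5.04% of all tested genes were called in the main setting, against 2.84%, 3.33%, 4.21% and 8.86% in these settings. Leaving out 1 library gave 0 to 8 (2.13% to 7.98% of all tested genes), and Usp18 and Bst2 lost their calls under 8 of 18 alternatives each. Leaving out 1 library gave 8 to 19 against 17 calls for SE against SA (5.69% to 12.8% of all tested genes, against 10.2%). The cause of these changes was not tested.

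Over all genes, calls under the alternatives ranged from 297 to 903 around 549 for SA against WT, from 292 to 1215 around 680 for SE against WT and from 781 to 1903 around 1376 for SE against SA. The shared replicate numbers gave no clear pairing over the 3 genotypes. Same-number deviations correlated from -0.195 to 0.105, against -0.261 to 0.27 for libraries of different numbers. In 6 of 18 cases a library correlated best with its own number. Between SA and SE the same-number values were all positive, at 0.0321 to 0.0984, against -0.101 to 0.0376 for different numbers of these genotypes. A weak pairing there cannot be told from its absence. With the replicate block, 3, 1 and 17 genes of the list were called in the 3 comparisons. The shares of all tested genes were 3.7%, 4.21% and 8.81%, against 4.07%, 5.04% and 10.2% in the main setting. Medians of the list stayed between 0.1154 and 0.202, -0.1024 and -0.0287, and -0.2956 and -0.1765. The depth limits Ifit3b, Mx2 and Isg20, which lie under 5 CPM, and the interferon genes.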
